A study of Arabidopsis thaliana with 16 samples.

Results

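The flavonoid and anthocyanin genes described here are 10 Arabidopsis loci: the enzymes CHS (AT5G13930), CHI (AT3G55120), F3H (AT3G51240), F3'H (AT5G07990), FLS1 (AT5G08640), DFR (AT5G42800), LDOX (AT4G22880) and UF3GT (AT5G54060), and the MYB transcription factors PAP1 (AT1G56650) and MYB12 (AT2G47460). They were chosen by their locus identifiers, and the count of each locus is the sum of its annotated transcripts, so 14 transcripts of 61786 in the count table made up 10 genes of 40421. Total RNA was sequenced from 8 groups of 2 libraries each, all in the Col-0 accession. Wild-type material was dry seed (DS), seed stratified in water in the dark and cold for 24 h (S24) or 72 h (S72), and material moved to continuous light in shaken liquid medium for 6 h (L6), 26 h (L26) or 57 h (L57). The other groups were seedlings at 57 h of light carrying hen2-4 or rrp4-2, each a single allele, and the comparisons ask how the genes change from seed to seedling and with a weakened nuclear exosome, the complex that degrades RNA in the nucleus. HEN2 is an RNA helicase that works with this complex and RRP4 is a core subunit of it. Nothing in the labels or methods says that the 2 libraries of a group are independent cultures, and their spread, on which each p-value rests, may be technical.

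Flavonoids are made from phenylalanine through the phenylpropanoid pathway. CHS joins a phenylpropanoid to malonyl units, CHI closes the ring, F3H and F3'H add hydroxyl groups, and the shared intermediate then goes to flavonols through FLS1 or to anthocyanins through DFR, LDOX and glycosyltransferases such as UF3GT. In Arabidopsis seedlings MYB12 is known to act on CHS, CHI, F3H and FLS1, while PAP1 acts with bHLH and WD-repeat partners on DFR, LDOX and UF3GT. Light is a classic inducer of the whole pathway.

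The stretches just upstream of 4 genes are shown because 2 of them (CHS and FLS1) rose early in light and the other 2 (DFR and UF3GT) were near 0 until L57. Each is the 250 bases before the gene start, read 5′ to 3′ along the gene's strand from the RefSeq TAIR10.1 genome, at chr5:4488226-4488475 (plus strand) for CHS, chr5:2803583-2803832 (plus) for FLS1, chr5:17166033-17166282 (minus) for DFR and chr5:21938397-21938646 (minus) for UF3GT. Capitals mark the G-box CACGTG, read by bZIP and bHLH factors, and the MYB-type motif ACCTACC with its variant ACCTAAC, its relative ACCAACC and the further form ACCAAAC, all searched on both strands.
CHS: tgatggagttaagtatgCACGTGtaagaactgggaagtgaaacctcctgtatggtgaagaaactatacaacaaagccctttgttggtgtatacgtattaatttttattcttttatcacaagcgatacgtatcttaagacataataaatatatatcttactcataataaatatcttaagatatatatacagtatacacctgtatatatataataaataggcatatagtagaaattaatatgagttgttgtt
FLS1: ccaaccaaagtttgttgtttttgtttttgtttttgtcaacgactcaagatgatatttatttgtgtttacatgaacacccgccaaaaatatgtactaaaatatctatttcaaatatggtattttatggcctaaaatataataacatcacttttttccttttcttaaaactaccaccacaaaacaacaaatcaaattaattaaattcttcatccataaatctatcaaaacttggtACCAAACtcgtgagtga
DFR: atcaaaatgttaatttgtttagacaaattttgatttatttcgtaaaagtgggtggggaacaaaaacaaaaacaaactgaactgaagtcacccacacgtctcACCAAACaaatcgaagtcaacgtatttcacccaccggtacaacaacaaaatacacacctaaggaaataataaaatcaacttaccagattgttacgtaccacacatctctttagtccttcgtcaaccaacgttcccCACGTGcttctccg
UF3GT: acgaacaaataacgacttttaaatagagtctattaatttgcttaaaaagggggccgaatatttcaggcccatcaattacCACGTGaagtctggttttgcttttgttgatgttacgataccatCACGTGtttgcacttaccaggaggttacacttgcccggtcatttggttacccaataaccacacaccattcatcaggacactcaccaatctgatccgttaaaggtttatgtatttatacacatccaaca

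CHS held 1 G-box starting 233 bases before its gene start, and UF3GT held 2, at 171 and 128 bases. DFR held a MYB-type motif at 149 bases and a G-box at 14 bases, and FLS1 a MYB-type motif at 17 bases. In windows of 250 bases, a G-box was present in 5 of the 10 members (CHS, F3H, DFR, UF3GT and MYB12) and in 6.49% of 27437 protein-coding genes. A MYB-type motif was present in 3 members (FLS1, DFR and PAP1) and in 13.7% of those genes. TATAAA on the gene's own strand was found in 2 members, CHI and F3'H, and in 32.9% of genes. A match of letters is not evidence that a factor binds there.

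The libraries held 75618077 to 266418636 counts. All 10 members passed the filter on low counts, as did 28824 genes in all, and the members took between 0.00118% (S72 replicate 1) and 0.0381% (rrp4-2 replicate 1) of the counts of a library. Levels are given in counts per 1000000 counts of the library (CPM), scaled between libraries with edgeR's trimmed mean of M-values (TMM), and a gene was called at an adjusted p under 0.05 in edgeR's quasi-likelihood test over all genes. Where a gene had under 50 counts in both groups, no fold change is given. The summed level of 4 seed storage genes was 80952 to 83295 CPM in DS and 35.5 to 47.5 in L57, and that of 4 photosynthesis genes was 26.7 to 27.1 in DS and 13653 to 16289 in L57, so DS and L57 held their defining transcripts. The storage sum, at 18144 to 24469 CPM, did not separate S24, S72 and L6. The photosynthesis sum did, at 16.6 to 18.5 CPM in S24, 67.2 to 71.3 in S72 and 183 to 190 in L6. DS replicate 1 carried 12.3% nuclear rRNA counts, against 0.543% in DS replicate 2. Because these are bulk samples, fewer expressing cells and less RNA per cell cannot be told apart.

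The enzymes shared by both branches were already measurable in seed and rose in light, each on its own schedule. CHS, the entry enzyme, was at 1.04 and 0.771 CPM in the dry seed libraries, 1.04 and 0.970 at S24, and 0.964 and 0.901 at S72. It then stood at 10.0 and 10.0 CPM in L6, 71.7 and 68.0 in L26, and 208 and 173 in L57. In CPM the seed groups lay close together, and every light group stood clear of the one before it. CHS rose 10.7-fold from S72 to L6 (log2 fold change 3.42 ± 0.11, SE, edgeR adjusted p = 2.3e-11), 6.97-fold from L6 to L26 (adjusted p = 2.47e-10) and 2.73-fold from L26 to L57 (adjusted p = 1.49e-08).

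CHI, which follows CHS, did not move with it at first. Its levels were 1.55 and 1.97 CPM in S72, 1.04 and 1.30 in L6, 7.36 and 8.97 in L26, and 17.8 and 15.2 in L57. It fell by 0.59 on the log2 scale from S72 to L6 (SE 0.18, edgeR adjusted p = 0.012), the step at which CHS rose, and then rose by 2.81 on the log2 scale from L6 to L26 (SE 0.18) and 2.02-fold from L26 to L57. The fall was lost without S72 replicate 2 (adjusted p = 0.109) and without L6 replicate 1 (adjusted p = 0.126).

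F3H, a dioxygenase of ring C, had the highest level per length of any member in DS, S24, S72 and L6. It was at 9.19 and 10.5 CPM in dry seed, 7.29 and 8.25 after 24 h of stratification, and 5.12 and 5.31 after 72 h. It reached 25.8 and 27.7 CPM in L6 and 57.8 and 57.0 in L26, and stood at 37.4 and 28.6 in L57. In CPM F3H thus declined through stratification, peaked at L26 and was lower again at L57. In TPM, the deposited length-corrected level, its mean was 5.86 in DS, 7.13 in S24 and 4.71 in S72, so the direction of the first step turned with the scale. Its fall from L26 to L57 was 0.80 on the log2 scale (SE 0.12, edgeR adjusted p = 4.47e-05), at a step where CHS, CHI and FLS1 rose. The fall from DS to S24 (1.27-fold, adjusted p = 0.035) was lost without DS replicate 2 (adjusted p = 0.327) and without S24 replicate 1 (adjusted p = 0.181).

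F3'H, the cytochrome P450 that turns kaempferol-type into quercetin-type precursors, had the smallest difference between DS and L57 of the 10. It was at 7.92 and 8.26 CPM in DS and had fallen to 3.63 and 4.58 in S24 (1.97-fold, edgeR adjusted p = 2.38e-04). It was 3.39 and 3.02 CPM in S72, 6.22 and 6.19 in L6, 14.5 and 11.1 in L26, and 12.7 and 10.1 in L57. From DS to L57 F3'H was 1.41-fold higher (adjusted p = 0.0157), which was lost without DS replicate 1 (adjusted p = 0.223) and without L57 replicate 1 (adjusted p = 0.147). The L26 and L57 libraries overlapped in CPM (log2 fold change -0.17 ± 0.16, SE, adjusted p = 0.389). In TPM F3'H was 1.95-fold lower in L57, at a mean of 6.28 against 12.2 in L26, without overlap.

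FLS1, the enzyme that commits the pathway to flavonols, followed CHS. FLS1 measured 0.453 and 0.373 CPM in dry seed, 0.516 and 0.446 at S24, and 0.535 and 0.564 at S72. Under light it measured 2.36 and 1.77 CPM in L6, 17.4 and 20.8 in L26, and 45.2 and 35.9 in L57. In CPM FLS1 was flat in seed and higher in each light group than in the one before. The rises were 3.76-fold from S72 to L6, 9.24-fold from L6 to L26 (log2 fold change 3.21 ± 0.15, SE, edgeR adjusted p = 1.61e-09) and 2.12-fold from L26 to L57. The last rise was lost when the most abundant transcript stood for the gene (log2 fold change 0.20, adjusted p = 0.701). The flat seed level depended on the scale. From DS to S24 the TPM mean of FLS1 went from 0.241 to 0.443, 1.84-fold, without overlap. CHS was 1.75-fold and CHI 1.73-fold higher in TPM, also without overlap, while F3'H and MYB12 were lower. In CPM none of the FLS1, CHS and CHI changes at that step was called.

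MYB12, the flavonol regulator, was at 0.236 and 0.181 CPM in dry seed, 0.0650 and 0.159 after 24 h of stratification, and 0.0122 and 0.0541 after 72 h. It then rose to 0.314 and 0.301 CPM in L6, 1.83 and 1.97 in L26, and 3.48 and 3.99 in L57. MYB12 fell from S24 to S72 (log2 fold change -1.72 ± 0.51, SE, edgeR adjusted p = 0.0129) and rose by 3.17 on the log2 scale from S72 to L6, 6.18-fold from L6 to L26 and 1.96-fold from L26 to L57. The S72 level rests on 3 and 14 counts, and the fall was lost without S24 replicate 2 (adjusted p = 0.199) and without S72 replicate 1 (adjusted p = 0.11). The last rise was lost without L57 replicate 2 (adjusted p = 0.053).

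**Figure D1:**
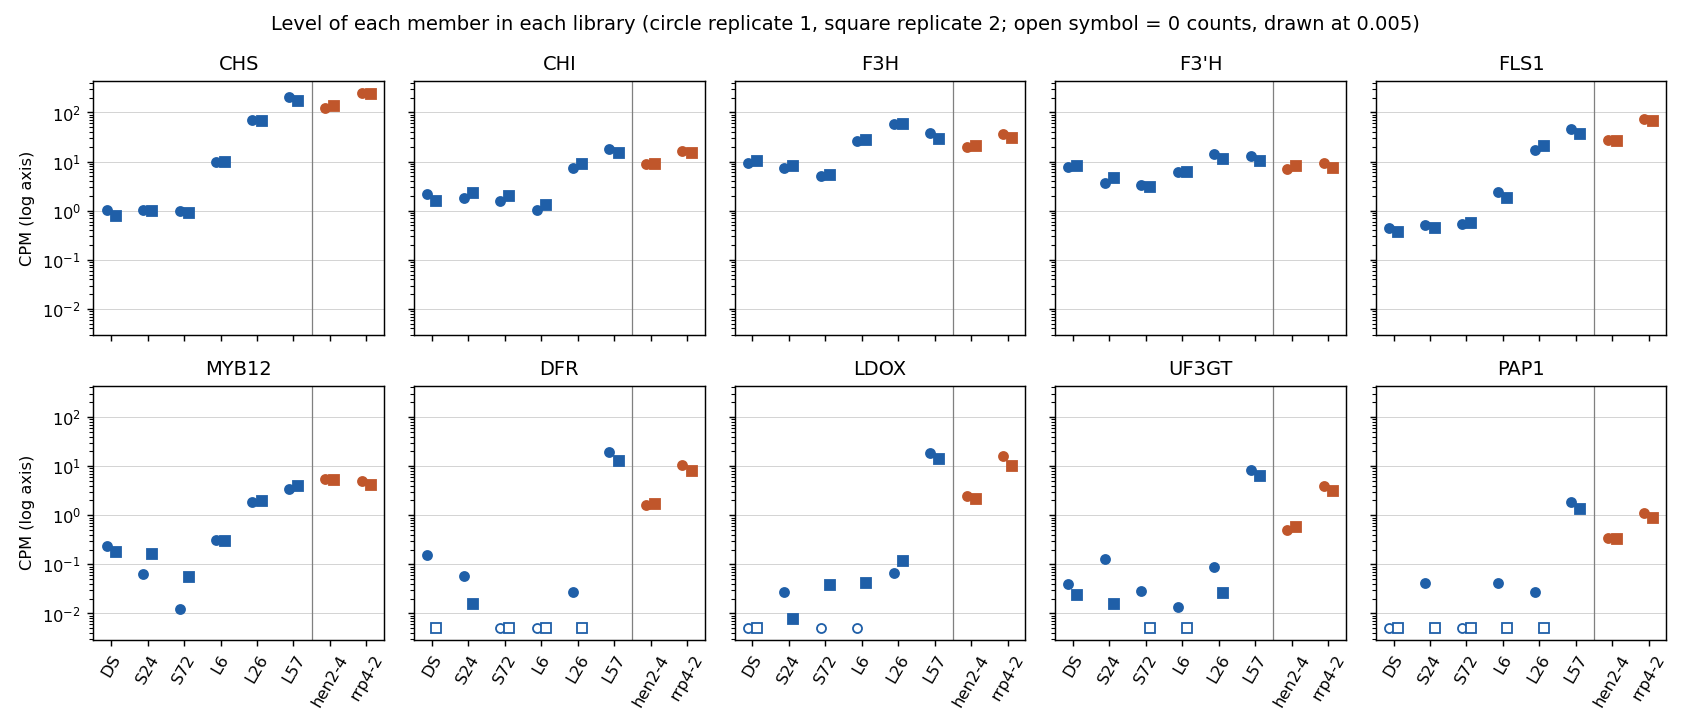
Level of each of the 10 genes in each of the 16 libraries, in CPM on a log axis, with circles for replicate 1 and squares for replicate 2, wild type in blue and mutants in orange. CHS, FLS1 and MYB12 climb at each light step, whereas DFR, LDOX, UF3GT and PAP1 stay at or near 0 counts (open symbols, drawn at 0.005) until L57.

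The genes after the branch to anthocyanins were at or near 0 in 5 of the 6 wild-type groups. DFR, the first enzyme of that branch, had 8 and 0 counts in dry seed, 15 and 4 at S24, 0 in each S72 and L6 library, and 4 and 0 at L26. In L57 it had 1782 and 1239 counts, or 19.1 and 12.8 CPM. The ratio of the L57 to the L26 level was 1202 (95% exact binomial interval 469 to 4413, counting error only), and the rise was called (edgeR adjusted p = 6.89e-08).

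LDOX, which makes the coloured anthocyanidin, was at 0 counts in both DS libraries, and its highest level before L57 was 0.117 CPM, in L26 replicate 2. It stood at 18.4 and 14.0 CPM in L57, 173-fold above L26 (log2 fold change 7.44 ± 0.48, SE, edgeR adjusted p = 3.06e-08). Against the limit that 3 counts in each DS library allow, L57 was at least 340-fold higher.

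UF3GT, which adds a sugar to anthocyanins, had between 0 and 34 counts in each library before L57. It was at 0.0879 and 0.0260 CPM in L26 and at 8.16 and 6.22 in L57, a rise of 126-fold (log2 fold change 6.98 ± 0.68, SE, edgeR adjusted p = 7.95e-07). PAP1, the anthocyanin regulator, had 4 and 0 counts in L26 and 176 and 132 in L57, or 1.89 and 1.37 CPM. The PAP1 ratio was 123 (95% exact binomial interval 47.4 to 452, edgeR adjusted p = 2.66e-04), and PAP1 was at 0 counts in both DS and both S72 libraries. All 4 genes thus had their wild-type counts almost wholly in L57.

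Counted over the 10 genes, the steps differed in how many were called. From DS to S24 none rose and 2 fell, where 53.6% of the genes tested were called, and from S24 to S72 none rose and 3 fell, where 53.8% were called. One of those 3 was DFR, at 15 and 4 counts in S24 and 0 in S72. The count at that step ran from 1, with only the 4 libraries of the comparison in the fit or with transcripts in place of genes, to 7 without organellar and rRNA genes, all lower. From S72 to L6, 5 rose and CHI fell (64.8% of genes called), and from L6 to L26, 6 rose and none fell (58.3%). From L26 to L57, 8 rose and F3H fell (65.3%). From DS to L57, all 10 were higher, where 78.2% of genes were called and 40.5% were called higher. Except at the last comparison, these shares cover both directions. Of the 28824 genes tested, 7138 fell from DS to S24 and 7983 from S24 to S72. Called higher were 9747 from S72 to L6, 8698 from L6 to L26 and 8574 from L26 to L57. The members were chosen with earlier results of these data known, so the counts are a description and carry no test of the set.

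**Figure D2:**
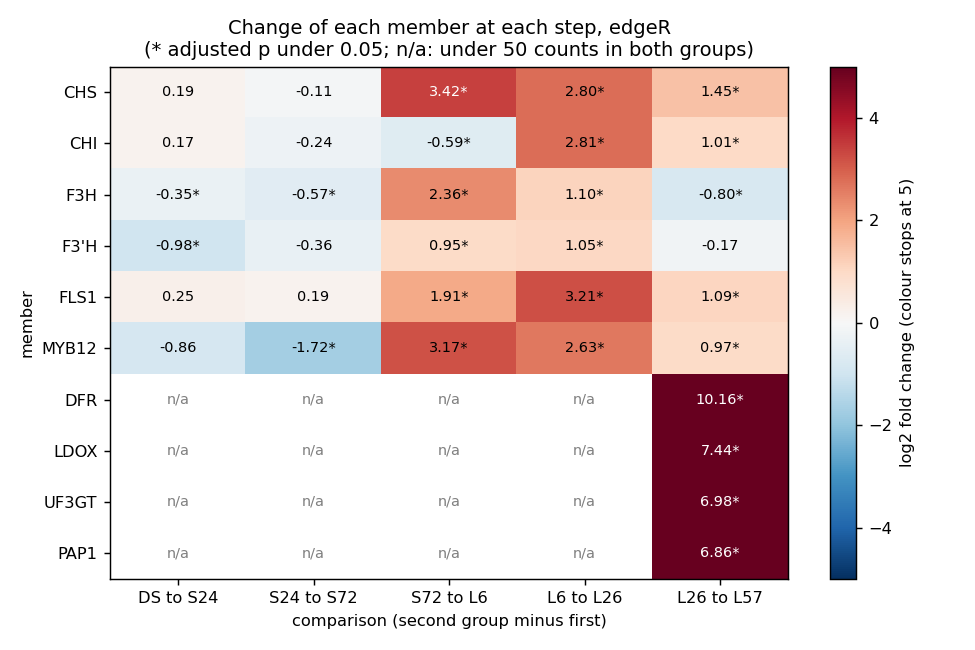
Log2 fold change of each gene at each wild-type step, from edgeR, with red for a rise and blue for a fall and an asterisk where the adjusted p was under 0.05. From L26 to L57 the values of 10.16 for DFR and 6.86 for PAP1 each rest on 4 counts in L26, 7.44 for LDOX on 28 and 6.98 for UF3GT on 17, and cells with under 50 counts in both groups are marked n/a.

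Per unit of length, in the deposited TPM, a length-corrected share scaled to 1000000 per library, summed over each locus, the leading gene changed from F3H to CHS. F3H led in DS with a mean of 5.86 TPM and in L6 with 34.0, while CHS led in L26 with 75.3 and in L57 with 119. The 10 genes together summed to 11.97 TPM in DS, 10.4 in S72, 56.4 in L6, 197 in L26 and 227 in L57. DFR, LDOX and UF3GT made up 0.111% and 0.0930% of that sum in the L26 libraries and 13.1% and 11.95% in the L57 libraries. The anthocyanin enzymes thus held a larger part of the sum at L57. The size of the last rise depended on the scale, since in CPM the 10 means summed to 169 in L26 and 337 in L57. From L26 to L57 CHS rose 1.58-fold in TPM against 2.73-fold in CPM, CHI 1.16-fold against 2.02-fold and FLS1 1.31-fold against 2.12-fold. MYB12 rose 1.12-fold in TPM against 1.96-fold in CPM, without overlap in TPM. F3H fell 3.01-fold against 1.74-fold, and F3'H, not called in edgeR, 1.95-fold against 1.12-fold. The CHI and FLS1 libraries overlapped in TPM, and those of F3'H did not. The chloroplast share of counts was 10.4% and 11.3% in L26 and 41.2% and 43.4% in L57, and its part in this was not tested. Of 52 called values, 51 had the same direction in TPM, and the exception was F3H from DS to S24. Libraries overlapped in TPM for 2 further called values, CHI from S72 to L6 and CHS in rrp4-2.

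At 57 h of light the libraries labelled hen2-4 had lower levels of most of the 10 genes, and those labelled rrp4-2 lay nearer to wild type. In hen2-4, 8 members were called lower and none higher, where 30.2% of the genes tested were called and 10.6% were called lower. In rrp4-2, 2 members were called higher and none lower, where 26.6% were called and 18.0% were called higher. The L57 libraries are the control of both comparisons. With only the 4 libraries of the comparison in the fit, rrp4-2 gave 1 member higher and 4 lower, and after thinning to the smallest library 1 higher and 3 lower. Without L57 replicate 2, 1 was called. With each gene's most abundant transcript in place of the gene, 4 members were called in hen2-4. HEN2 itself was at 17.8 and 17.8 CPM in L57 and at 80.9 and 78.2 in the libraries labelled hen2-4, and RRP4 at 6.28 and 5.59 in L57 and at 7.72 and 5.63 in those labelled rrp4-2. Neither level was lower in its mutant, and since the sources used here do not state where either lesion lies in the transcript, these levels do not check the labels. The names hen2-4 and rrp4-2 therefore stand for the libraries so labelled, and the directions rest on those labels.

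The anthocyanin genes were the most lowered in hen2-4. DFR was at 1.63 and 1.70 CPM in the hen2-4 libraries, against 19.1 and 12.8 in wild type and 10.7 and 8.07 in rrp4-2. It was 9.59-fold lower in hen2-4 than in L57 (log2 fold change -3.26 ± 0.36, SE, edgeR adjusted p = 7.14e-05), and in rrp4-2 the value was -0.77 ± 0.33 (adjusted p = 0.109). The 3 groups did not overlap, with rrp4-2 between the others. The DFR call in hen2-4 was lost in DESeq2's Wald test (log2 fold change -3.40, adjusted p = 0.0787) and with transcripts in place of genes (adjusted p = 0.138).

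LDOX was at 2.42 and 2.19 CPM in the hen2-4 libraries, against 18.4 and 14.0 in wild type and 15.8 and 9.90 in rrp4-2. It was 7.03-fold lower in hen2-4 (log2 fold change -2.81 ± 0.33, SE, edgeR adjusted p = 7.22e-05), while the L57 and rrp4-2 libraries overlapped (adjusted p = 0.484). UF3GT was at 0.498 and 0.587 CPM in the hen2-4 libraries, against 8.16 and 6.22 in wild type and 3.87 and 3.07 in rrp4-2. Its fall in hen2-4 was 13.2-fold (log2 fold change -3.73 ± 0.52, SE, adjusted p = 1.73e-04), and in rrp4-2 it was not called (log2 fold change -1.05 ± 0.46, adjusted p = 0.114). The fall in hen2-4 was lost for UF3GT with transcripts in place of genes (adjusted p = 0.0915). DFR, LDOX and UF3GT were each past 4-fold lower, as were 0.427% of the genes tested.

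PAP1 was at 0.347 and 0.325 CPM in the hen2-4 libraries, against 1.89 and 1.37 in wild type and 1.13 and 0.890 in rrp4-2. The log2 fold change in hen2-4 was -2.27 ± 0.80 (SE), which missed the threshold (edgeR adjusted p = 0.0545). The libraries did not overlap, which counts for little with 2 libraries a group. PAP1 was called in 3 of 12 other settings of that comparison, whose adjusted p ranged from 1.61e-04 to 0.479.

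The shared enzymes and FLS1 were lowered less in hen2-4. CHS was at 121 and 133 CPM there and at 208 and 173 in L57, a 1.50-fold fall (log2 fold change -0.58 ± 0.09, SE, edgeR adjusted p = 4.84e-04). CHI fell 1.85-fold to 8.76 and 9.09 CPM, F3H 1.61-fold to 20.1 and 20.8, and F3'H 1.50-fold to 7.15 and 8.04. FLS1 fell 1.48-fold, to 28.1 and 26.6 CPM. The F3'H call was lost without L57 replicate 1 (adjusted p = 0.189) or hen2-4 replicate 1 (adjusted p = 0.116), and the FLS1 call without L57 replicate 1 (adjusted p = 0.0925). With its most abundant transcript alone, FLS1 gave a log2 fold change of 0.11 (adjusted p = 0.95). MYB12 stood at 5.53 and 5.18 CPM in hen2-4, above its 3.48 and 3.99 in L57, with a log2 fold change of 0.52 ± 0.26 (SE) that was not called (adjusted p = 0.161).

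In rrp4-2, FLS1 was at 74.5 and 65.7 CPM, 1.73-fold above L57 (log2 fold change 0.79 ± 0.13, SE, edgeR adjusted p = 7.12e-04). CHS was at 254 and 233 CPM, 1.28-fold above L57 (log2 fold change 0.35 ± 0.09, adjusted p = 0.0146). The CHS call was kept in only 4 of 12 other settings and was lost with DESeq2's size factors (log2 fold change 0.19, adjusted p = 0.163), without L57 replicate 2 (adjusted p = 0.167) and without rrp4-2 replicate 1 (adjusted p = 0.0961). FLS1 was called higher in each of the 12. F3'H, at 9.43 and 7.45 CPM, gave -0.44 ± 0.16 (adjusted p = 0.0639).

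Set against each other, 7 of the 10 genes were higher in rrp4-2 than in hen2-4 and none lower, where 9.52% of genes were called and 4.97% were called higher. UF3GT was 6.38-fold higher (log2 fold change 2.67 ± 0.50, SE, edgeR adjusted p = 0.00467), DFR 5.63-fold, LDOX 5.58-fold and FLS1 2.56-fold. CHS, CHI and F3H were 1.91-fold, 1.80-fold and 1.60-fold higher. The UF3GT call was lost without hen2-4 replicate 1 (adjusted p = 0.0569), and DESeq2's Wald test lost DFR (adjusted p = 0.321) and LDOX (adjusted p = 0.128). With transcripts in place of genes, 2 of the 10 were called. F3'H, PAP1 and MYB12 were not called.

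**Figure D3:**
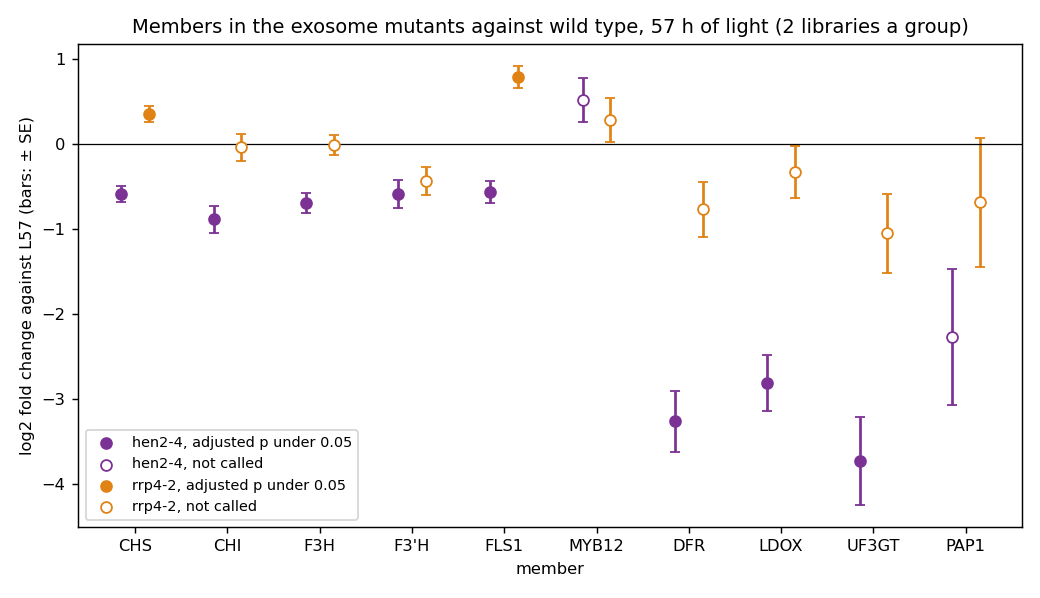
Log2 fold change of each gene against L57, from edgeR, in hen2-4 (purple) and rrp4-2 (orange). Bars show ± SE, derived from the F statistic of the test, and open circles mark genes not called. The values for DFR, LDOX and UF3GT lie between -3.73 and -2.81 in hen2-4 and between -1.05 and -0.33 in rrp4-2.

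The 2 branches stood in different proportion in the 3 seedling groups. The ratio of FLS1 to DFR, in TPM, was 2.59 and 2.93 for the L57 libraries, 17.3 and 16.4 for hen2-4 and 7.01 and 8.67 for rrp4-2. In every earlier library DFR had 15 counts or fewer, and no ratio is given. The 3 groups did not overlap, and the ratio was highest in hen2-4. DFR, LDOX and UF3GT made up 2.63% and 2.45% of the summed TPM of the 10 genes in hen2-4 and 7.94% and 6.23% in rrp4-2.

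Other measures also moved with the mutants. The chloroplast share of counts was 41.2% and 43.4% in L57, from 46.6% to 47.0% in hen2-4 and up to 49.7% for rrp4-2. The summed level of 3 endosperm markers was 535 to 599 CPM in L57, 175 to 183 in hen2-4 and 111 to 116 in rrp4-2, most of it CP1, and 2 of the 3 were called lower in each mutant. The 4 photosynthesis markers summed to 13695 to 14442 CPM in hen2-4 and 10180 to 11263 in rrp4-2. The 4 seed storage genes summed to 35.5 to 47.5 CPM in L57, 23.7 to 25.7 in hen2-4 and 45.4 to 59.8 in rrp4-2. Of those 4, 3 were called lower in hen2-4 and 4 were higher in rrp4-2 than in hen2-4, the same directions as the members called. The part of these differences in the members' levels was not tested. L57 replicate 1 was above replicate 2 for 9 of the 10 genes, by a median ratio of 1.28, where 46.2% of all genes with at least 20 counts in both were higher in it. In rrp4-2, replicate 1 was above replicate 2 for 10 of the 10, by a median ratio of 1.25, where 48.6% of all genes were.

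Genes around the members were counted in 7 lists, 66 loci in all, with TMM scaling only. Of the 28824 genes tested, 9747 were called higher and 8943 lower from S72 to L6. The numbers were 8698 and 8098 from L6 to L26, 8574 and 10242 from L26 to L57, and 11671 and 10879 from DS to L57. Against L57, 5657 were higher and 3050 lower in hen2-4, and 5201 and 2462 in rrp4-2. The 8 general phenylpropanoid enzymes, which feed CHS, were all called higher from L26 to L57. PAL1, the ammonia-lyase at the entry, rose from a mean of 3.44 to 146 CPM (log2 fold change 5.41 ± 0.11, SE, edgeR adjusted p = 1.48e-12), and 4CL2, a CoA ligase, from 0.293 to 8.74. Earlier in light the list was mixed, with 3 higher and 4 lower from S72 to L6, where PAL4 fell from 76.7 to 20.3 CPM and C4H from 193 to 60.3. In hen2-4, 3 of 8 were lower (PAL1, PAL4 and 4CL3), and in rrp4-2, 3 of 8 were higher, among them PAL2 at 189 against 137 CPM.

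Of the other flavonol genes, 9 of 11 were tested. From S72 to L6 they were mixed, with 4 higher and 3 lower. UGT78D2 had its highest mean in S24, at 72.7 CPM, after 54.4 in DS. It was at 22.3 CPM in S72, 7.43 in L6 and 29.8 in L57. From L6 to L26, 7 of the list rose with none lower. CHIL, a helper of CHS without isomerase activity, rose from 1.01 to 15.0 CPM and UGT89C1, a flavonol rhamnosyltransferase, from 5.00 to 21.9. From L26 to L57, 8 of the 9 rose, including OMT1, a methyltransferase of lignin and flavonol precursors, from 70.6 to 273 CPM. FLS5, a homologue of FLS1, had no counts in L26 and 9.40 CPM in L57, at least 473-fold above the limit of 3 counts in each L26 library. In hen2-4, 5 of 9 were lower, such as UGT89C1 at 12.6 against 27.9 CPM, and 2 were higher, UGT73C6 at 18.7 against 4.35 CPM and FLS5 at 18.6 against 9.40. Both were higher in rrp4-2 as well, at 8.57 and 18.7 CPM.

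Of the 8 genes of anthocyanin decoration and transport, 7 rose from L26 to L57 and UGT84A2, a sinapate glucosyltransferase, fell from 161 to 58.2 CPM, with TT19, a glutathione transferase needed for anthocyanin storage, going from 0.0826 to 6.85 CPM and UGT75C1, an anthocyanin glucosyltransferase, from 0.261 to 6.16. UGT84A2 and BGLU10 did not share the late profile: both were measured from dry seed onward, at 92.9 and 15.8 CPM in DS. Both were lower in L57 than in DS. Others shared it only in part. SCPL10 was already at 3.25 CPM in L26, against 15.4 in L57. 3AT1 was at 1.62 CPM in S24 and 1.69 in L6, against 2.98 in L57. In hen2-4, 7 of 8 were lower, with a median log2 fold change of -2.27 beside 0.08 over all genes tested. TT19 was at 1.03 CPM there (log2 fold change -2.73 ± 0.38, SE, edgeR adjusted p = 1.83e-04) and UGT75C1 at 0.952 (log2 fold change -2.69 ± 0.36). In rrp4-2, 3AT1 alone was lower, at 1.79 against 2.98 CPM, with a list median of -0.50.

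The proanthocyanidin branch, which shares LDOX and colours the seed coat, had BAN and TT2 at or near 0, but not all of its listed genes. BAN, the reductase that starts it, had at most 14 counts in any library, and TT2, its MYB regulator, at most 6. The summed level of 6 endothelium markers lay between 0.753 and 1.65 CPM in every library, and BAN, TT2 and TT16 were all at 0 counts in L6, L26 and L57. AHA10 alone had group means of 0.584 to 1.30 CPM. Other genes of the list were measured throughout. TT15 was at 40.8 CPM in DS and 9.70 in L57, and TT9 at 29.3 and 13.9. From DS to L57, 1 of the 5 genes tested was higher and 3 were lower.

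Among 13 activators, 9 were tested, and from L26 to L57 2 rose and 3 fell. EGL3, a bHLH partner of PAP1, rose from 0.183 to 6.08 CPM from S72 to L6 and fell from 11.5 to 3.34 from L26 to L57, while TTG1, the WD-repeat partner, rose from 7.45 to 15.7 at the last step. PAP2, the close homologue of PAP1, moved against it, at 1.09 CPM in L6, 1.96 in L26 and 0.440 in L57 (log2 fold change from L26 -2.16 ± 0.41, SE, edgeR adjusted p = 4.21e-04). TT8, another bHLH partner, had 3 counts in L26 and a mean of 1.19 CPM in L57, a ratio of 120 (95% exact binomial interval 40.5 to 586). In hen2-4, GL3, EGL3 and TTG2 were lower and TTG1 higher, and in rrp4-2 none of the 9 was called by edgeR.

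All 11 repressors were tested, and 9 of them rose from L26 to L57 alongside the late members. MYBL2, an R3-MYB that acts on DFR, rose from 0.466 to 25.9 CPM and KFBCHS, an F-box protein that marks CHS protein for degradation, from 3.79 to 132. In hen2-4, 7 of the 11 were higher and none lower, where 5657 of the 28824 genes tested were called higher. Of all calls in hen2-4, 65.0% were higher with TMM and 42.6% with DESeq2 size factors. The list was not counted with the latter. Among those of at least 5 CPM the largest changes were those of KFBCHS at 337 CPM (log2 fold change 1.35 ± 0.16, SE, edgeR adjusted p = 5.05e-05) and MYBL2 at 50.8 (log2 fold change 0.97 ± 0.21). In rrp4-2, 4 were higher, with KFBCHS at 206 CPM, and MYBL2 was lower, at 15.6 CPM. MYBL2 differed between the mutants by -1.70 ± 0.21 on the log2 scale (adjusted p = 3.38e-04), against the direction of DFR.

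Of 9 light signalling factors, 5 rose and 3 fell from L6 to L26. BBX25, a B-box factor, rose from 0.532 to 7.80 CPM at that step and to 45.8 in L57, and HYH, a bZIP homologue of HY5, from 4.59 to 22.6 and then 30.7. In hen2-4, 3 of the 9 were called higher and 2 lower. HYH was at 15.4 CPM there and BBX25 at 23.9, both lower, and BBX22 was at 50.7 against 21.4, higher. In rrp4-2, 2 were called higher and 2 lower. HYH at 23.0 and BBX25 at 36.7 CPM were lower there, and CRY1, a blue-light receptor, was higher at 138 against 114.

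**Figure D4:**
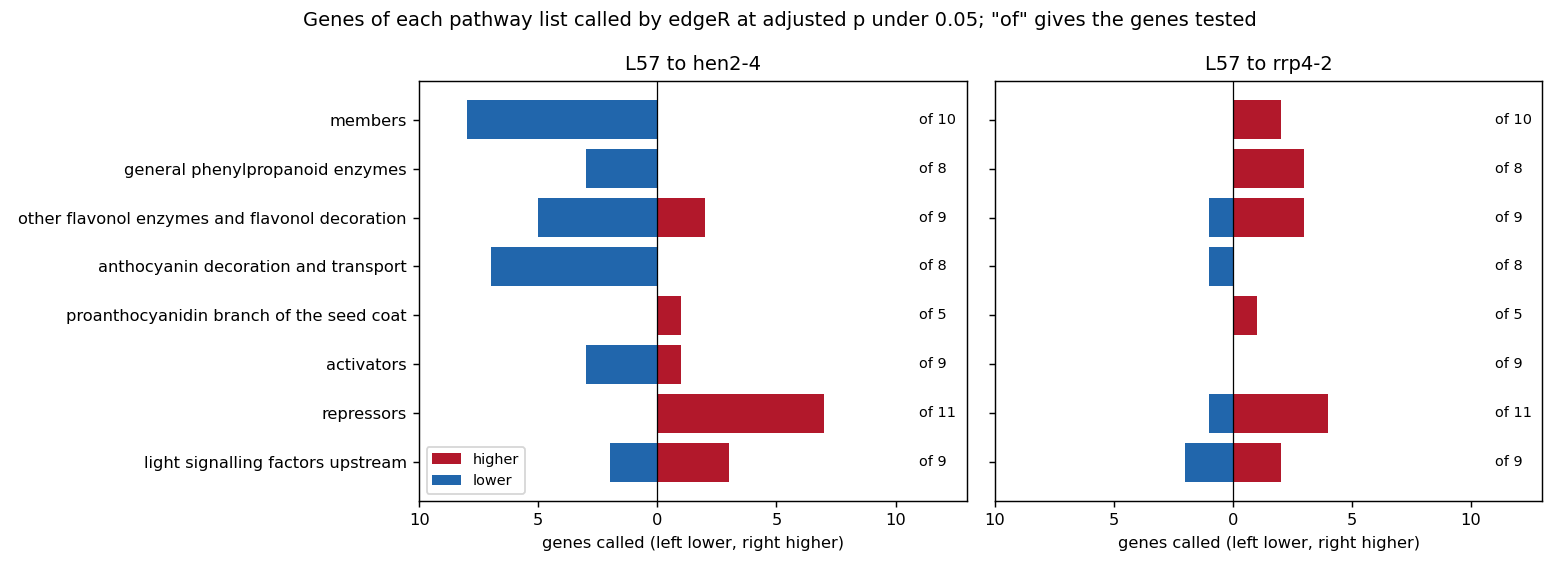
Number of genes of each list called lower (left, blue) or higher (right, red) against L57 in hen2-4 and rrp4-2, with the number tested beside each bar. Anthocyanin decoration shows 7 of 8 lower in hen2-4 and 1 of 8 in rrp4-2, and repressors show 7 of 11 higher in hen2-4 and 4 of 11 in rrp4-2. Of all 28824 genes tested, 3050 were lower and 5657 higher in hen2-4, and 2462 and 5201 in rrp4-2.

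Across the 12 wild-type libraries the genes with the profile most like CHS, by Pearson's r of log2 CPM among 16484 genes, were MTHFR2 (r = 0.998), the chloroplast loci ATCG01300 and ATCG00840, GSA2, a chlorophyll synthesis enzyme, and MLP28. For PAP1 they were AT3G25930 (r = 0.988), AT4G15990, AT3G44970, AT3G09450 and SWEET17 (r = 0.972). For MYB12 they were MIPS3 (r = 0.988), AT4G11680, AT5G52540, AT2G21830 and AT2G44060 (r = 0.981). Among the members, CHS was closest to FLS1 (r = 0.992) and DFR to UF3GT (r = 0.960), while F3H and DFR gave 0.294. These values describe 12 libraries at 6 stages, in which libraries of a stage share its state, and carry no test.

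Of the 10 loci, F3H and FLS1 had 2 transcripts in the count table, LDOX had 3, and the other 7 had 1. FLS1 counts lay wholly on the first transcript up to L26, but in L57 the second took 63.1% in replicate 1 and 27.3% in replicate 2. It took 0% and 32.3% in the hen2-4 libraries and 0.347% and 42.3% in rrp4-2. LDOX split likewise, its second transcript taking 62.9% and 42.6% for L57, 47.8% and 20.0% for hen2-4, and 53.9% and 23.9% for rrp4-2. Libraries of 1 group differed in these splits as much as groups did, and the loci are compared by their sums.

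**Figure D5:**
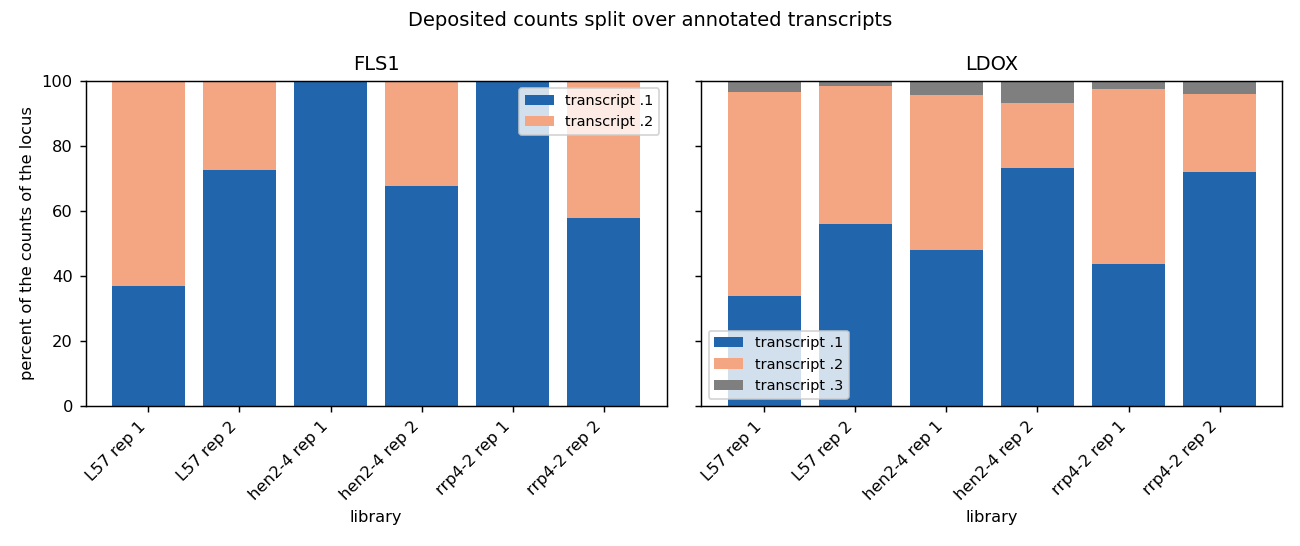
Percent of the counts of FLS1 and LDOX on each annotated transcript in the 6 libraries at 57 h of light, as stacked bars that add up to 100. The second FLS1 transcript runs from 0% in hen2-4 replicate 1 to 63.1% in L57 replicate 1, with the 2 libraries of each group apart.

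Antisense transcription was also examined. One de novo transcript lay within 1000 bases of a member, on the strand opposite F3'H, at chr5:2561441-2562007 inside the gene. It had 0 to 3 counts in each of the 12 wild-type libraries, with 29 and 13 for hen2-4 and 19 and 40 for rrp4-2. An annotated gene, AT3G51238, overlaps F3H on the other strand over 1588 bases, and held 0% to 0.666% of their joint counts, with 51 counts at most. The library kit keeps strand, but the labels and methods do not state whether counting used it.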

How the data were processed

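Total RNA was sequenced from 16 libraries in 8 groups of 2. Per the labels and the study's methods, the authors trimmed reads with HOMER 4.11.1, aligned them to TAIR10 with STAR 2.7.9a (a read with several places was put at 1 of them at random) and quantified Araport11 and de novo transcripts with StringTie 2.1.4. The deposited expected counts per transcript (61786) and the deposited TPM (46640 transcripts), were used. The methods call these TPM TMM-normalized, yet each library's deposited column sums to 1000000, so they were read as plain TPM. No source used here says how the transcripts of that table were chosen. The deposited estimated counts were already whole numbers and were summed per locus without rounding. Groups were fitted together in edgeR 4.0.16 (R 4.3.3; TMM, filterByExpr, quasi-likelihood test, 8 residual degrees of freedom), with Benjamini-Hochberg adjustment over 28824 genes and a threshold of 0.05, in 9 comparisons, and the test was checked on simulated data. Fold changes are given with SE, and intervals cover counting error only. Alternatives were DESeq2 1.42.0, another scaling, no filter, fewer features or libraries, thinning, transcripts, a replicate block and each library left out.

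The members and the pathway lists were chosen with earlier results of these data known. Pathway genes named are, for each list and comparison, the 2 of largest fold change among those called with a mean of at least 5 CPM in the higher group. Named outside that rule, after their values were seen, were TT8, BAN, TT2, TT16, PAP2, GL3, TTG2, 3AT1, HEN2 and RRP4, and in some comparisons genes named in another. Positions are from the RefSeq TAIR10.1 annotation. All 171 introns of the deposited de novo transcripts had splice-site letters at their ends in that genome.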

Additional observations from a re-analysis of the deposited data

Results flagged for a closer look

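A test of the difference between the mutants themselves was passed by 7 of the 10 genes, each higher in rrp4-2 than in hen2-4. The log2 differences were 2.67 for UF3GT, 2.49 for DFR, 2.48 for LDOX, 1.36 for FLS1, 0.94 for CHS, 0.85 for CHI and 0.68 for F3H. Both mutants share the L57 libraries as control, and the difference between them does not use those libraries for the contrast. No group had the 4 libraries needed to look for a library far from the others.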

How the results depend on the processing

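Of 52 log2 fold changes that were called, 36 stayed called under every alternative and 51 kept their direction under every alternative. The exception was FLS1 in hen2-4, at 0.11 with its most abundant transcript in place of the gene. No other reversal touched a called value. F3'H from L26 to L57 gave 0.18 with DESeq2 size factors and 0.18 with the DESeq2 Wald test, and FLS1 from S24 to S72 gave -0.039 without organellar and rRNA genes. The ranks per length did not move with CPM per kb in place of TPM, but both divide counts by length, so little movement was possible.

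The number of members called changed as follows. From DS to S24 it was 1 without organellar and rRNA genes, after thinning and with transcripts, against 2, and from 1 to 3 when a library was left out. From S24 to S72 it was 6 with the DESeq2 Wald test, 7 without organellar and rRNA genes, and 1 with only the 4 libraries compared or with transcripts, against 3. In hen2-4 it was 4 with transcripts, against 8. In rrp4-2 it was 5 with only the 4 libraries (1 higher, FLS1, and 4 lower), 4 after thinning (1 higher and 3 lower) and 1 with transcripts, against 2, and 1 to 2 when a library was left out. Between the mutants it was 2 with transcripts, against 7. DFR in hen2-4 was not called by the DESeq2 Wald test (adjusted p = 0.0787). Why these counts changed was not tested.

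With a library left out, uncalled values changed sign. From DS to S24, CHS ranged from -0.041 to 0.35 and CHI from -0.043 to 0.34. F3'H ranged from -0.35 to 0.023 from L26 to L57 and from -0.031 to 0.31 between the mutants. In rrp4-2, CHI ranged from -0.15 to 0.081 and F3H from -0.18 to 0.20.

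The replicate block changed no call: the members called stayed at 2, 3, 6, 6, 9, 10, 8, 2 and 7 over the 9 comparisons. Libraries with the same number did not deviate together (r from -0.05 to 0.09 over 28 pairs of groups). The median over all genes tested shifted with DESeq2 size factors by -0.15 (log2) from DS to S24, 0.16 from L26 to L57 and 0.17 from DS to L57. Leaving out organellar and rRNA genes moved it by 0.22 from DS to S24, -0.21 from S24 to S72, 0.11 from L26 to L57 and 0.24 from DS to L57. Among all genes called, 65.0% were higher in hen2-4, or 42.6% with DESeq2 size factors, and 67.9% in rrp4-2, or 39.6%. From L26 to L57 it was 45.6%, or 58.8%. Depth limits DFR, LDOX, UF3GT and PAP1 before L57, where a change among a few counts could be missed. The only change called there was the fall of DFR from S24 to S72, from 15 and 4 counts to 0.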
